A study of Mus musculus with 27 samples.

Results

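Naive T cells from lymph node were compared with Foxp3- CD4 single-positive thymocytes of low CD24 (CD24lo) across 18194 genes. The comparison used 6 of the 27 arrays of the series, 3 labelled as peripheral naive T cells of lymph node and 3 labelled as thymic Foxp3- GFP- cells with low CD24, and a gene was represented by its brightest probe set with a single gene symbol. All cells came from mice on a Balb/c background. Sorted T cells were profiled on Affymetrix 3′ expression arrays from 50 ng of total RNA. The thymocyte sorts rest on Foxp3, which marks and specifies regulatory T cells (Tregs), and on CD24, which is lost from the surface in the course of thymocyte maturation. The other groups set beside the comparison were Foxp3- thymocytes with intermediate CD24 (CD24int), Foxp3+ GFP+ CD24lo thymocytes and lymph node Tregs, 3 arrays each. GFP presumably marked Foxp3, since the labels pair the 2 terms. The source labels of the Foxp3- thymocytes carry the word Treg, but the series design calls these cells conventional, and they are treated so here. That the thymocytes were CD4 single-positive is given by the series title and not by the labels of the samples. The labels give no age, no allele name for the GFP, and no sort markers for the lymph node cells. They do not say whether the 3 arrays of a group came from separate mice, so p-values measure only the spread between these samples, which may be technical.

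A CD4 single-positive thymocyte that has passed selection lowers CD24, raises the transcription factors Klf2 and Foxo1 with the egress receptor S1pr1, and leaves for blood and lymph nodes, where it circulates as a naive cell until it meets antigen. Not every mature Foxp3- thymocyte takes that path. Innate-like T cells, such as natural killer T cells and some gamma delta T cells, are set up in the thymus by factors including PLZF (encoded by Zbtb16), acquire effector genes before any infection, and can stay in the thymus for long periods.

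The values are log2 of the deposited intensities. Over all arrays the intensities ran from 3.55 to 24083, with array medians of 30.3 to 32.0. Arrays of the same group correlated at 0.989 to 0.995 within the compared groups, and arrays of different groups at 0.975 to 0.983. Differences are given as naive minus CD24lo with the standard error (SE) from limma, and a gene was called at an adjusted p under 0.05. The median SE was 0.15, and 3 arrays per group set the limit of precision.

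None of Foxp3, Il2ra and Cd24a, read as a check of the sorts, was called between the groups. Foxp3 was at 4.37, 4.21 and 3.94 on the naive arrays and 3.82, 3.98 and 3.68 on the CD24lo arrays, against a mean of 9.90 in Foxp3+ CD24lo thymocytes. Il2ra, the high-affinity interleukin 2 receptor chain, differed by 0.23 (SE 0.20, adjusted p = 0.554), and Cd24a by 0.89 (SE 0.42, adjusted p = 0.193). Without naive array 1 the Cd24a difference was 1.37 and was called (adjusted p = 0.0351). It was also called with the replicate number as a block in the fit (0.89, adjusted p = 0.00365). Cd3d, a chain of the T cell receptor complex, ranged from 12.47 to 12.77 on the naive arrays and from 12.43 to 12.81 on the CD24lo arrays (-0.01, SE 0.14). Of the genes taken to mark naive T cells, Ccr7, Lef1, Klf2 and S1pr1 were called higher on the naive arrays, and Il7r differed by -0.10 (SE 0.34). All measured members of a short innate-like T cell set (Zbtb16, Tbx21, Il4, Ifng, Il2rb, Klrd1 and Cxcr6) were called lower on the naive arrays. So were the gamma delta T cell markers Trgv4 and Sox13. The call of Cxcr6 was lost when some single arrays were left out. The longer lists below also held innate-like and NK receptor genes that were higher or not called. Il2rb was nevertheless higher in lymph node Tregs, at a mean of 10.69, than on the CD24lo arrays, at 9.07. In such sorted bulk samples fewer cells of a type and less RNA per cell cannot be told apart.

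Across all genes 2658 (14.6%) were called, 1097 higher (6.03%) and 1561 lower (8.58%) in naive cells. The falls were deeper than the rises. At least a 2-fold difference was reached by 551 called genes that were lower (3.03%) and by 171 that were higher (0.94%), and the lowest difference was -6.81 against a highest of 3.00. The median over all genes was 0.03. The split of calls by direction moved with scaling, since 41.3% of calls were higher with the values as deposited, 51.1% after quantile normalization and 60.4% after each array was centred on its median. The arrays of the groups did not overlap for 5475 genes (30.1%), which included 2609 of the called ones. The 15 largest rises and falls named below were taken only from called genes without overlap. Counts of list members below stand beside the shares of all genes given here.

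**Figure D1:**
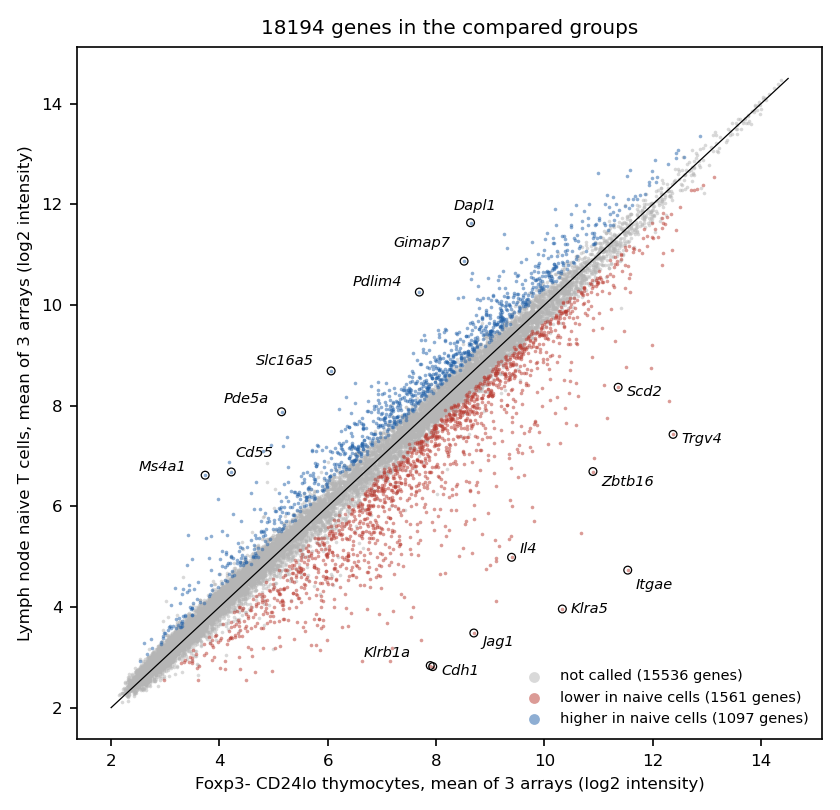
Mean log2 intensity of each of 18194 genes in Foxp3- CD24lo thymocytes (x axis, 3 arrays) and in lymph node naive T cells (y axis, 3 arrays), with the 1097 called higher genes in blue, the 1561 called lower genes in red and the line of equal values in black. Genes below the line reach further from it than genes above it, down to Itgae at -6.81, while the furthest above is Dapl1 at 3.00.

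The gene with the deepest fall was Itgae, which encodes CD103, the integrin alpha chain that binds E-cadherin on epithelium. Itgae was at 4.79, 4.52 and 4.88 on the naive arrays and at 11.71, 11.43 and 11.47 on the CD24lo arrays, so that the groups lay far apart. The difference was -6.81 (SE 0.42, 112-fold lower in naive cells, adjusted p = 1.53e-11). A second probe set of Itgae fell by 6.02. Cdh1, which encodes E-cadherin itself, was at 2.78, 3.08 and 2.58 in naive cells and at 7.94, 7.86 and 8.01 in CD24lo cells, a 34.8-fold difference with no overlap (-5.12, SE 0.37, adjusted p = 2.78e-10). The receptor and its ligand were high on the same thymic arrays. Itga1, the alpha chain of a collagen-binding integrin of tissue-resident lymphocytes, was also lower in naive cells, by 6.59-fold (-2.72, SE 0.23, adjusted p = 3.46e-09). Other integrin chains were higher there. Itga4, the alpha chain of VLA-4, rose by 1.18 (SE 0.15), Itga6, a laminin receptor chain, by 0.88 (SE 0.11), and Itgb7, which pairs with Itga4 or Itgae, by 0.80 (SE 0.11). Of 29 integrin and adhesion genes measured, 9 were higher and 7 lower, and the 7 became 4 after median centring. Itgb2, the common leukocyte beta chain, differed by -0.06 (SE 0.12).

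Killer cell receptors, which sense MHC class I and related ligands on natural killer (NK) cells and innate-like T cells, made up several of the deepest falls. Klra5, a Ly49 family receptor, was at 4.38, 3.56 and 3.94 on the naive arrays and at 10.74, 10.35 and 9.90 on the CD24lo arrays. No naive array came near a CD24lo array, and the difference was -6.37 (SE 0.47, 82.8-fold, adjusted p = 3.17e-10). Klrb1a, a member of the NK1.1 family, was at 3.05, 2.76 and 2.70 in naive cells and at 7.60, 8.06 and 8.01 in CD24lo cells (-5.06, SE 0.17, 33.3-fold, adjusted p = 2.50e-16). Its naive values were close to the 2.65 of lymph node Tregs. Klrc1, which encodes NKG2A, was 18.5-fold lower (-4.21, SE 0.25), while its partner chain Klrd1, which encodes CD94, was at 6.90, 7.22 and 7.41 in naive cells against 10.11, 9.60 and 9.50 in CD24lo cells (-2.56, SE 0.39, 5.89-fold). The mean of Klrd1 in lymph node Tregs was 2.81. Cd160 (-2.41, SE 0.27) and Klrk1, which encodes the activating receptor NKG2D (-2.35, SE 0.22), also fell. In all 13 of 23 measured NK receptor genes fell and 1 rose, with a median of -0.89. With dim genes (mean log2 over the 27 arrays under 5) left out, the 13 became 4. That step removed Klra5, Klrb1a, Klrc1, Klrd1 and Klrk1, whose means were 4.74, 3.35, 3.37, 4.85 and 4.37. The 1 that rose was Crtam, an adhesion receptor of activated and cytotoxic T cells, at 7.79, 7.93 and 8.08 against 5.91, 6.28 and 6.45 (1.72, SE 0.19, adjusted p = 2.55e-07). Ly49 and related receptors form multigene families, so a probe set can read a relative of the gene it is named for.

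Transcription factors of innate-like T cells fell as a group, 12 of 15 measured, with 2 higher and a median of -1.11. Zbtb16 was at 6.85, 6.68 and 6.54 on the naive arrays and at 11.17, 10.91 and 10.61 on the CD24lo arrays (-4.20, SE 0.39, 18.4-fold, adjusted p = 1.62e-08). Its mean was 6.89 in Foxp3- CD24int thymocytes and 4.50 in lymph node Tregs. Maf, which drives interleukin 4, 10 and 21 genes, was at 9.25, 9.00 and 8.04 against 11.73, 11.51 and 11.30 (-2.75, SE 0.43). Hivep3 (Schnurri-3), needed for natural killer T cell development, fell by 2.42 (SE 0.15), although another probe set of that gene was called higher. Myb, which is required at the progenitor stage of natural killer T cells, fell by 2.21 (SE 0.17). Tbx21, which encodes T-bet, the factor of type 1 effector cells, was at 7.33, 7.05 and 6.71 against 8.55, 8.57 and 8.45 (-1.49, SE 0.26, adjusted p = 0.000127). The higher members included Eomes, the T-box partner of T-bet (0.66, SE 0.18, adjusted p = 0.0138). That call was lost without naive array 1 (adjusted p = 0.132) and without CD24lo array 1 (0.0735) or 2 (0.0514), and the count of higher members was then 1.

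Cytokines of innate-like T cells followed the same direction, with 6 of 11 measured lower, 1 higher (0 without naive array 2 or CD24lo array 1) and a median of -0.66. Il4, the type 2 cytokine made by natural killer T cells, was at 5.62, 4.83 and 4.50 in naive cells and at 10.00, 9.09 and 9.10 in CD24lo cells. The groups were separate, and the difference was 21.2-fold (-4.41, SE 0.38, adjusted p = 4.01e-09). Xcl1, a chemokine for cross-presenting dendritic cells, fell 10.5-fold (-3.39, SE 0.46), and Ifng 5.11-fold (-2.35, SE 0.44). Il21, a helper cytokine for B cells, fell by 2.30 (SE 0.22), Il13 by 1.45 (SE 0.18) and Tnf by 0.66 (SE 0.15). Il17a was near the dim end in both groups (3.97 to 4.28 and 4.16 to 4.46) and differed by -0.15 (SE 0.22). The lower count was 3 with dim genes left out, which removed Il4, Il13 and Il21 (means over all arrays of 4.68, 3.89 and 4.74). Receptors that make such cells responsive fell with them. Il17rb, which binds interleukin 25, fell 7.97-fold (-3.00, SE 0.34), Il12rb1 by 2.09 (SE 0.22), and Il18r1 and Il18rap, the 2 chains of the interleukin 18 receptor, by 1.99 (SE 0.40) and 2.09 (SE 0.25). Il2rb, shared by the interleukin 2 and 15 receptors, fell by 1.82 (SE 0.18). Il4ra, the interleukin 4 receptor chain, rose by 1.36 (SE 0.10, adjusted p = 1.24e-10), from 7.99, 8.18 and 8.33 in CD24lo cells to 9.51, 9.52 and 9.57 in naive cells. Over the 22 cytokine receptor genes, 6 fell and 5 rose.

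All 7 measured genes of gamma delta T cells fell, with a median of -3.08. Trgv4, a variable segment of the T cell receptor gamma chain, was at 7.31, 7.37 and 7.61 on the naive arrays and at 12.40, 12.30 and 12.42 on the CD24lo arrays (-4.95, SE 0.41, 30.8-fold, adjusted p = 2.31e-09). Trgv1 fell 18.5-fold (-4.21, SE 0.46). In CD24int thymocytes the means of Trgv4 and Trgv1 were 7.72 and 7.71. Sox13, a transcription factor of gamma delta lineage cells, was at 5.32, 4.85 and 5.06 against 9.14, 8.61 and 8.23 (-3.59, SE 0.21, adjusted p = 5.39e-12), Cd163l1, a scavenger receptor of gamma delta cells, fell by 3.08 (SE 0.20) and the kinase gene Blk by 2.61 (SE 0.42). Gamma chain segments are alike in sequence, so their probe sets may read each other's transcripts. The constant region genes of the delta chain were not analysed here.

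Effector and memory genes were mostly lower in naive cells, 20 of 34 measured against 2 higher (1 without CD24lo array 1), with a median of -0.93. Pdcd1, which encodes the inhibitory receptor PD-1, was at 6.55, 5.75 and 5.66 on the naive arrays and at 9.84, 9.70 and 9.78 on the CD24lo arrays (-3.79, SE 0.21, 13.8-fold, adjusted p = 2.78e-12). Icos, a costimulatory receptor of helper cells, fell 9.39-fold (-3.23, SE 0.32), and Lgals3 and S100a6, a galectin and a calcium-binding protein of activated cells, 13.4-fold (-3.75, SE 0.55) and 8.18-fold (-3.03, SE 0.50). Among cytotoxic genes 8 of 16 were lower and 2 higher, and the 2 became 1 without CD24lo array 1. Gzmb, a granule protease, was at 5.01, 4.90 and 4.57 against 9.15, 8.83 and 9.02 (-4.18, SE 0.33, 18.1-fold, adjusted p = 9.03e-10). Gzma (-2.96, SE 0.36), the protease inhibitor gene Cst7 (-2.83, SE 0.22) and Ctsw, a cathepsin of killer cells (-2.80, SE 0.12), fell in the same direction. The chemokine Ccl5, a product of memory and effector cells, showed no such fall: it was at 9.28, 9.27 and 8.41 on the naive arrays and at 8.78, 9.00 and 9.02 on the CD24lo arrays, and the groups overlapped (0.05, SE 0.30, adjusted p = 0.952).

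Further genes among the 15 deepest falls came from no single list. Jag1, a Notch ligand, was at 3.93, 3.36 and 3.16 in naive cells and at 8.99, 8.43 and 8.67 in CD24lo cells (-5.21, SE 0.59, 37.1-fold). Spry2, a feedback inhibitor of receptor kinase and ERK signalling, fell 31.9-fold (-5.00, SE 0.34), and Arhgap24 and Chn2, which encode GTPase-activating proteins of the Rac family, 20.8-fold (-4.38, SE 0.24) and 18.2-fold (-4.19, SE 0.36). The scavenger receptor-like gene 5830411N06Rik fell 36.7-fold (-5.20, SE 0.40). The 15 deepest falls were taken only from called genes whose arrays did not overlap, so that separation was set by the choice.

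**Figure D2:**
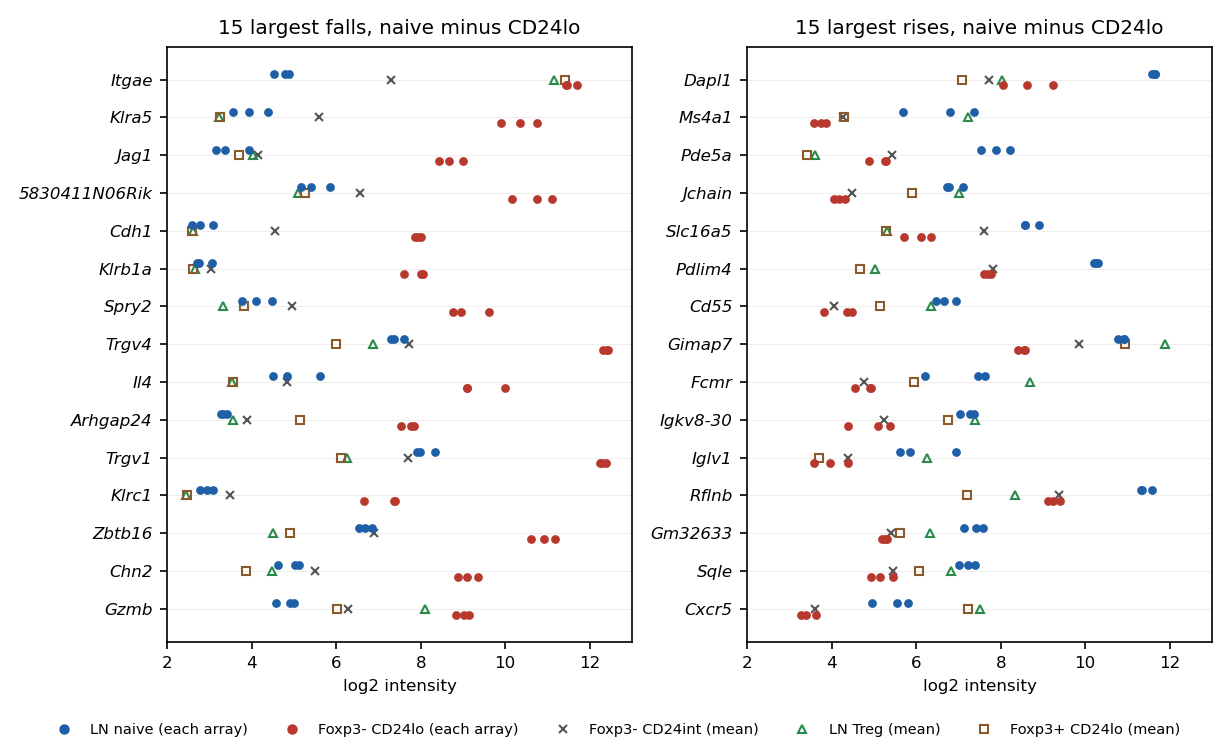
Log2 intensity of the 15 called genes with the largest fall (left) and the largest rise (right) in naive cells, with 1 dot per array for lymph node naive cells (blue) and Foxp3- CD24lo thymocytes (red), and group means of 3 arrays for Foxp3- CD24int thymocytes (cross), lymph node Tregs (triangle) and Foxp3+ CD24lo thymocytes (square). Blue and red dots never overlap because the genes were chosen so. The Treg means of Itgae, at 11.15 and 11.41, lie with the CD24lo arrays, while those of Klra5, at 3.22 and 3.26, lie with the naive arrays.

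Genes of resting naive T cells rose, 17 of 25 measured against 1 lower, with a median of 0.76. The list held Dapl1 and Pde5a, which were given as markers of this comparison. Like the other lists it was chosen with earlier results of these data known, so the count is no independent support. Dapl1, a gene of resting T cells whose protein function is little known, was at 11.66, 11.65 and 11.59 on the naive arrays and at 9.23, 8.61 and 8.06 on the CD24lo arrays. The naive arrays lay close together and all above the thymic ones, which spread over more than 1 log2 unit (3.00, SE 0.31, 7.99-fold, adjusted p = 1.00e-07). Pdlim4, which encodes a PDZ and LIM domain protein of the actin skeleton, was at 10.26, 10.30 and 10.21 against 7.77, 7.60 and 7.70 (2.56, SE 0.23, 5.92-fold). Slc16a5, a monocarboxylate transporter, was at 8.58, 8.58 and 8.90 against 5.72, 6.12 and 6.35 (2.63, SE 0.19, 6.18-fold). Both were among the 15 largest rises, where lack of overlap was part of the choice. Tdrp rose by 1.73 (SE 0.14) and the pseudokinase gene Trib2 by 1.38 (SE 0.12). Lef1, the factor that acts with Tcf1 in naive and immature T cells, was at 11.85, 12.10 and 11.89 against 10.90, 11.37 and 11.29 (0.76, SE 0.12, adjusted p = 7.17e-05). Ets1 (0.22, SE 0.10) and Satb1 (-0.02, SE 0.12), a pair of abundant T cell factors, were not called, although another probe set of Satb1 was called higher (0.37, adjusted p = 0.0498).

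Genes of thymocyte maturation and egress also rose, 15 of 24 measured with 1 lower and a median of 0.71. S1pr1, the receptor for sphingosine 1-phosphate that draws cells out of thymus and lymph node, was at 9.77, 9.28 and 8.88 on the naive arrays and at 7.85, 8.01 and 7.54 on the CD24lo arrays (1.51, SE 0.23, 2.85-fold, adjusted p = 3.17e-05). Ccr7, the receptor that brings naive cells into lymph node, was at 11.35, 11.33 and 11.28 against 9.77, 10.50 and 10.23 (1.16, SE 0.15, adjusted p = 4.65e-06). Both were non-overlapping. Cd55, a complement regulator that appears late in T cell maturation, was at 6.65, 6.94 and 6.46 against 4.49, 4.36 and 3.81 (2.46, SE 0.23, 5.51-fold). The GTPase genes Gimap7 (2.35, SE 0.14), Gimap3 (1.98, SE 0.25) and Gimap6 (1.07, SE 0.14), of a family that supports lymphocyte survival, rose together. Klf3 rose by 1.82 (SE 0.20) and Foxo1, picked after its values were seen, by 0.88 (SE 0.11). Klf2 rose by 1.02 (SE 0.32, adjusted p = 0.0294), but this call was lost without naive array 1 (adjusted p = 0.0811) or 2 (0.130) and without CD24lo array 1 (0.118) or 3 (0.120).

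Genes that mark immature thymocytes were divided, with 4 of 23 higher (2 without CD24lo array 1), 5 lower and a median of -0.02, and the recombinase gene Rag1 differed by -0.54 (SE 0.25). Genes that change after thymic exit had 4 of 17 higher and 5 lower, with a median of -0.19. Among those that fell was Nt5e, which encodes the ectoenzyme CD73 (-1.70, SE 0.41).

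Other Foxo, Klf and E protein genes divided. Of 19 measured, 8 were higher and 4 lower, with a median of 0.13. The Foxo targets and regulators Pik3ip1, an inhibitor of PI3 kinase, and Sgk1, a kinase downstream of it, rose by 1.36 (SE 0.18) and 1.30 (SE 0.21). Id3, an inhibitor of E proteins that rises with T cell receptor signals, was at 8.09, 8.57 and 8.92 in naive cells against 9.89, 10.06 and 10.34 in CD24lo cells (-1.57, SE 0.20, adjusted p = 2.71e-06). Klf10, a target of transforming growth factor beta, fell by 1.19 (SE 0.12). Among survival and death genes 8 of 23 were higher and 4 lower. Bcl2, which protects resting T cells, was at 10.39, 10.35 and 10.66 against 9.10, 9.54 and 9.77 (1.00, SE 0.14, 1.99-fold), and its antagonist Bcl2l11, which encodes Bim, rose by 1.04 (SE 0.16). Pmaip1, which encodes Noxa, fell by 2.16 (SE 0.38) and Bid by 0.85 (SE 0.15).

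Cyclic nucleotide genes contained large movements in both directions, with 7 of 34 measured higher, 4 lower and a median of -0.01. Pde5a, a phosphodiesterase that breaks down cyclic GMP, was at 7.89, 8.22 and 7.52 on the naive arrays and at 5.27, 5.28 and 4.89 on the CD24lo arrays. The groups did not overlap (2.73, SE 0.32, 6.64-fold, adjusted p = 6.99e-07), and 2 other probe sets of the gene were called higher as well, at 2.98 and 1.32. Gucy1b1, a subunit of the soluble guanylate cyclase that makes cyclic GMP, rose by 1.45 (SE 0.30), from 3.08, 3.40 and 4.01 to 4.92, 4.84 and 5.07. The other probe set of Gucy1b1, with a mean level of 4.68 against 4.79, was not called (0.22, adjusted p = 0.639). Receptors that raise cyclic AMP rose too: Ptger2, a prostaglandin E2 receptor, by 1.61 (SE 0.24) and Vipr1, the receptor for vasoactive intestinal peptide, by 1.30 (SE 0.26). Pde3b, a phosphodiesterase of cyclic AMP that is typical of conventional T cells, was at 11.10, 11.05 and 10.26 in naive cells and at 12.44, 12.11 and 11.97 in CD24lo cells (-1.37, SE 0.34, adjusted p = 0.00551). Without naive array 3 its difference was -1.10 and missed the threshold (adjusted p = 0.0511), and Pde3b was the naive T cell gene counted as lower above. Crem, a cyclic AMP response repressor, fell by 1.95 (SE 0.21). The kinase subunit gene Prkacb (-0.11, SE 0.13) and the cyclase gene Adcy7 (-0.11, SE 0.24) were not called. The regulatory subunit gene Prkar1a was not called on its brightest probe set (-0.39, SE 0.16), but another was called lower (-0.67, adjusted p = 0.0141), as was the mean of its probe sets (-0.42, adjusted p = 0.00917).

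Chemokine receptor genes were exchanged rather than shifted, with 8 of 27 measured higher and 8 lower. Ccr10, a receptor for skin and mucosal chemokines, was at 5.35, 5.38 and 5.50 in naive cells and at 8.91, 9.49 and 9.75 in CD24lo cells (-3.97, SE 0.23, 15.7-fold, adjusted p = 3.34e-12). Ccr2, a receptor of inflammatory migration, and Ccr8 fell by 2.38 each (SE 0.47 and 0.26), and Ccr4, a receptor of medullary thymocytes and type 2 cells, by 1.80 (SE 0.15). Ccr9, a receptor of thymocytes and gut-homing cells, was at 8.18, 7.88 and 8.04 against 9.63, 9.58 and 9.58 (-1.56, SE 0.16). Cxcr5, which leads cells to B cell follicles, rose 4.00-fold (2.00, SE 0.26), and Cxcr4, the receptor for CXCL12, rose by 1.44 (SE 0.28). Cxcr6, a receptor of resident innate-like T cells, was at 8.52, 8.37 and 7.93 in naive cells and at 9.39, 10.03 and 10.19 in CD24lo cells. That difference of -1.60 (SE 0.50, adjusted p = 0.0300) missed the threshold without naive array 2 (adjusted p = 0.0658) or 3 (0.114) and without CD24lo array 2 (0.0890) or 3 (0.117). Cxcr3, the receptor of type 1 cells, differed by -1.03 (SE 0.38, adjusted p = 0.0688), and was called lower in the fit of the compared groups alone (adjusted p = 0.00134) and on log2 of intensity plus 16 (0.0389).

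Genes induced by T cell receptor signals were lower in naive cells or not called, with 10 of 24 lower, none higher (1 without CD24lo array 3) and a median of -0.56. Nr4a2, an orphan nuclear receptor, was at 4.82, 4.85 and 4.65 in naive cells and at 6.99, 7.01 and 5.73 in CD24lo cells (-1.80, SE 0.31, adjusted p = 0.000112). Its other probe sets were divided, some called lower (-2.01 and -1.11) and others not called (0.03, -0.06 and -0.36). Egr2, which is needed for natural killer T cells as well as for tolerance, fell by 1.05 (SE 0.16), and Irf4 by 1.06 (SE 0.16). A dimmer probe set of Irf4 was not called (-0.12, adjusted p = 0.789). Tnfsf11, which encodes the ligand RANKL that matures the thymic medulla, fell by 2.29 (SE 0.18). Ikzf2, which encodes Helios and is also a Treg gene, fell 10.6-fold (-3.40, SE 0.17), from 11.44, 11.17 and 10.89 to 8.14, 7.75 and 7.39. Cd5, a surface protein set by signal strength, differed by 0.21 (SE 0.12), and Cd69, which holds cells in tissue, by 0.56 (SE 0.27). With the replicate number as a block in the fit, Cd69 was called higher (adjusted p = 0.0201). Proximal signalling genes showed 7 of 32 higher and 6 lower with a median of -0.01. Rasgrp1, which activates Ras, rose by 1.01 (SE 0.13), whereas the inhibitory phosphatases Ubash3b (-1.37, SE 0.20) and Ptpn6, which encodes SHP-1 (-0.75, SE 0.14), fell and Ubash3a rose (0.86, SE 0.14). Themis, a scaffold needed for thymocyte selection, was at 9.52, 9.42 and 9.30 in naive cells and at 7.65, 7.75 and 7.94 in CD24lo cells (1.63, SE 0.12, adjusted p = 5.86e-10). Of 27 NF-kB and TNF receptor family genes 6 were higher and 6 lower, among them Tnfrsf25 (1.24, SE 0.15) and Tnfrsf1b (-1.62, SE 0.16), which are death receptor 3 and TNF receptor 2.

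**Figure D3:**
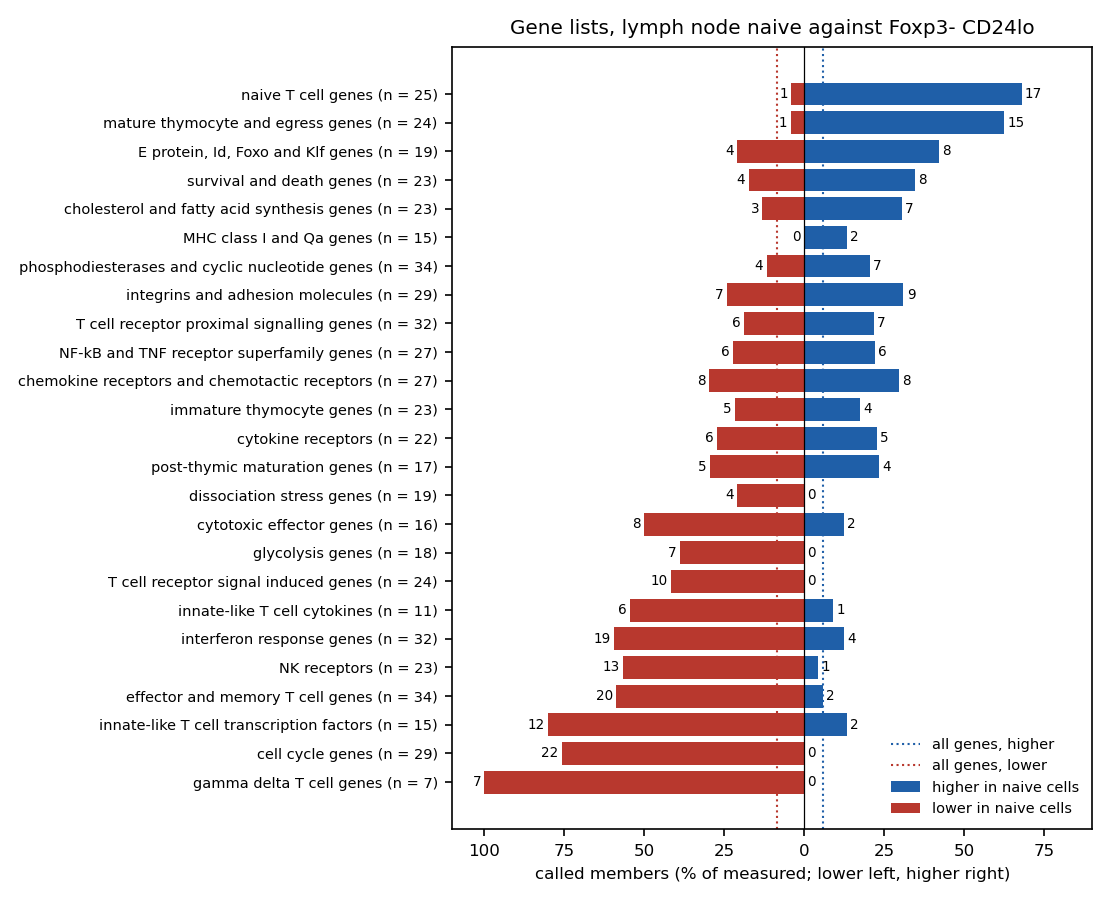
Share of each list's measured members that were called higher (blue, to the right) or lower (red, to the left) in naive cells, in percent, with the number of members at the bar's end and the share over all genes as dotted lines (6.03% higher, 8.58% lower). Naive T cell and egress genes extend to the right with 17 and 15 members, and innate-like, gamma delta, effector, interferon and cell cycle genes to the left.

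Cell cycle genes were lower in naive cells, 22 of 29 measured with a median of -1.18 and none higher. Ccnb2, a mitotic cyclin, was at 6.31, 5.10 and 5.64 on the naive arrays and at 7.91, 7.63 and 8.22 on the CD24lo arrays (-2.24, SE 0.51, 4.72-fold, adjusted p = 0.00260). Cdc6, which loads the replicative helicase, was at 5.20, 4.37 and 5.12 against 7.56, 6.61 and 7.32 (-2.26, SE 0.38, 4.80-fold, adjusted p = 9.32e-05). Birc5, which encodes survivin, fell by 2.13 (SE 0.44). The arrays of each gene did not overlap, but the spread within the groups was wide. Mki67, the proliferation marker, was at 7.70, 6.57 and 6.96 against 10.21, 9.00 and 9.33, and its call (adjusted p = 0.0105) was lost without naive array 2 (0.0576) or CD24lo array 1 (0.0651). The count of lower genes was 11 without naive array 2, 14 without naive array 3 and 12 without CD24lo array 1. Tubb5, a tubulin of most cells, differed by -0.07 (SE 0.11).

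The start regions of these genes were read for the E2F motif. Windows of 300 bases around transcript starts came from RefSeq (build GRCm38.p6). The motif TTTNNCGC, searched on both strands, was in 6 of the 17 lower cell cycle genes with a window, in 1 of the 7 other members and in 5.93% of all 27025 genes. The windows of Cdc6 (chr11:98907901-98908200, plus strand) and Mcm6, a subunit of the replicative helicase (chr1:128359656-128359955, minus strand), show a single match and several, of which the first 2 overlap. They are printed 5′ to 3′ along the gene, with matches in capitals.
Cdc6: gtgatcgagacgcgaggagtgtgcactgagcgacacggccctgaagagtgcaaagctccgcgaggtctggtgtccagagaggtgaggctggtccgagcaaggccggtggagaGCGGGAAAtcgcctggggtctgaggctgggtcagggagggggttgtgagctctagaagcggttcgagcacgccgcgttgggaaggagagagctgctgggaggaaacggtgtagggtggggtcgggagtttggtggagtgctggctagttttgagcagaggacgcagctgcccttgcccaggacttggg
Mcm6: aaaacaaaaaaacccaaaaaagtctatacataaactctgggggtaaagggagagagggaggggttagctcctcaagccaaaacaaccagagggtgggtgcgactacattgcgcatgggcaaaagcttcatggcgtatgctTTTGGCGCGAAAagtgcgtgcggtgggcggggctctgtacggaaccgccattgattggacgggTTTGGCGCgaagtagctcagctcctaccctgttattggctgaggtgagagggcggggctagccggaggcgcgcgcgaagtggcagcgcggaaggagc
A match describes letters and not binding, which was not measured here. In all 6 motifs were searched. CCAAT was in 13 of the 17 lower cell cycle genes, 5 of the 7 other members and 41.1% of all genes, and the Kruppel-like motif CCACCC in 8 of 13 higher egress genes, 1 of 7 others and 34.0% of all. The T-box motif TCACACC was in 1 of 11 lower NK receptor genes, 1 of 7 others and 4.6% of all, and the sterol regulatory element, TCAC and CCAC with any base between, in 0 of 6 higher cholesterol genes, 1 of 11 others and 1.44% of all.

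Interferon response genes were lower in naive cells in 19 of 32 measured, with 4 higher and a median of -0.60. The 4 became 2 without naive array 1 or 2 or without CD24lo array 1. Oas1a, which senses double-stranded RNA, was at 7.90, 7.66 and 7.32 on the naive arrays and at 9.65, 9.88 and 9.90 on the CD24lo arrays (-2.18, SE 0.19, 4.53-fold, adjusted p = 7.21e-09). Ly6e, a membrane protein induced by interferon, was at 8.59, 8.46 and 8.43 against 10.37, 10.48 and 10.56 (-1.98, SE 0.25). Both genes showed groups that did not overlap. The antiviral genes Mx1 (-1.58, SE 0.19), Oas3 (-1.54, SE 0.15) and Ifit3 (-1.47, SE 0.17) fell as well. Irf1 (0.16, SE 0.12) and Gbp2 (0.10, SE 0.12), which respond mainly to interferon gamma, were not called.

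The interferon-stimulated response element, GAAA and GAAA with any 2 bases between, searched on both strands of the same windows, was in 7 of the 12 lower genes with a window and in 6 of the 10 other members, against 3.99% of all genes. The element thus marked the list and did not separate its lower members from the others. Oas1a (chr5:120907476-120907775, minus strand) and Ifit3 (chr19:34583279-34583578, plus strand) are shown because both were among the deepest falls of the list, with their matches in capitals, overlapping in Oas1a and apart in Ifit3.
Oas1a: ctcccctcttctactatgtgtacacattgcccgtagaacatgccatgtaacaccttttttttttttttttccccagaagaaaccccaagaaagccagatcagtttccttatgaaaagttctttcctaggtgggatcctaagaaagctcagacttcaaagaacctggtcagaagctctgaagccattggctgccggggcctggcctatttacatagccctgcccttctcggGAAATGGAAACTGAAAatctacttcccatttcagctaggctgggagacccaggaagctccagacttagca
Ifit3: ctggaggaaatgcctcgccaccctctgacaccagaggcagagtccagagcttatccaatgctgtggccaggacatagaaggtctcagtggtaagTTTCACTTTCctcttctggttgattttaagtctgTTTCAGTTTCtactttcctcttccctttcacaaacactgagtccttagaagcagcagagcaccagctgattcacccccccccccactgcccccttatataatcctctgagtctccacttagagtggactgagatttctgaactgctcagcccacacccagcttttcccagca

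Among 23 genes of cholesterol and fatty acid synthesis 7 were higher and 3 lower, and the 7 became 4 without naive array 2 or without CD24lo array 1. Sqle, the squalene epoxidase of cholesterol synthesis, was at 7.22, 7.38 and 7.01 in naive cells and at 4.94, 5.15 and 5.44 in CD24lo cells (2.02, SE 0.22, 4.06-fold, adjusted p = 2.07e-07). Srebf2, the factor that controls that pathway, rose by 1.01 (SE 0.14) and Insig1, its feedback inhibitor, by 1.03 (SE 0.23). Scd2, a fatty acid desaturase, went the other way, from 11.31, 11.35 and 11.42 in CD24lo cells to 8.13, 8.33 and 8.64 in naive cells (-3.00, SE 0.14, 7.98-fold, adjusted p = 1.43e-13). Of 18 glycolysis genes 7 were lower and none higher, but 1 was higher in the fit of the compared groups alone, after quantile normalization and with probe sets averaged. Tpi1, triose phosphate isomerase, fell by 1.60 (SE 0.19), Pgam1 by 1.09 (SE 0.19) and Hk2, hexokinase 2, by 0.91 (SE 0.11), whereas Ldha, lactate dehydrogenase, differed by -0.10 (SE 0.11). Of 15 MHC class I genes 2 were called higher and none lower (13.3%, against 14.6% of all genes called). Without single arrays the count was 0 (naive array 1 or 2, or CD24lo array 2) or 1 (naive array 3 or CD24lo array 3). It was 5 after median centring and 4 with dim genes left out, with probe sets averaged or on log2 of intensity plus 16. The 2 called genes were Tap1 (0.41) and Psmb9 (0.33), and both missed the threshold in the fit of the compared groups alone (adjusted p = 0.0674 and 0.152). With probe sets averaged Tap1 differed by 0.14 (adjusted p = 0.325). The classical genes H2-K1 (0.29) and H2-D1 (0.21) were not called on their brightest probe sets. H2-K1 was called higher with its probe sets averaged (0.42, adjusted p = 0.00153), as was H2-D1 (0.31, adjusted p = 0.00408). The probe sets of these 2 may read each other's transcripts. Genes that respond to tissue dissociation were called lower in 4 of 19, including Fosb (-2.84, SE 0.71) and Dusp1 (-1.28, SE 0.28), while Fos itself differed by -0.57 (SE 0.36, adjusted p = 0.360). Its naive arrays, at 12.32, 12.68 and 11.96, overlapped the CD24lo arrays at 12.60, 13.13 and 12.95. The part of cell handling in these results was not tested.

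**Figure D4:**
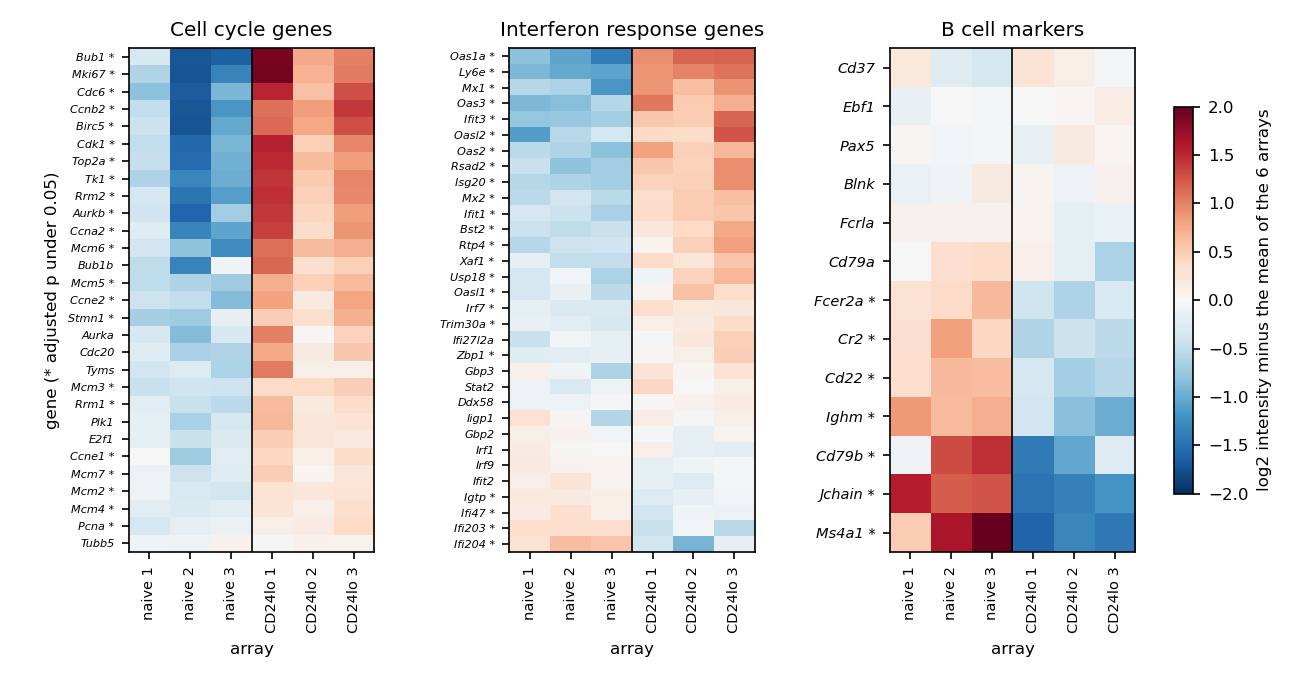
Log2 intensity of each gene on each of the 6 arrays minus that gene's mean over the 6 arrays (colour scale from -2 to 2) for cell cycle genes, interferon response genes and B cell markers, with a star for a called gene and a line between the 3 naive and the 3 CD24lo arrays. Cell cycle genes are mostly highest on CD24lo array 1 and lowest on naive array 2, interferon genes divide by group, and Ms4a1, Jchain and Cd79b are higher on the naive arrays.

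Transcripts of B cells were present on the naive arrays above the level of the thymic arrays, and 7 of 13 measured B cell markers were called higher and none lower (median 0.89). Ms4a1, which encodes CD20, was at 5.68, 6.81 and 7.36 on the naive arrays and at 3.58, 3.87 and 3.75 on the CD24lo arrays (2.88, SE 0.29, 7.37-fold, adjusted p = 5.56e-08). Cd79b, a chain of the B cell receptor, was at 5.50, 6.88 and 7.04 against 4.17, 4.53 and 5.32 (1.80, SE 0.34), and Jchain, which joins secreted immunoglobulins, rose by 2.69 (SE 0.54). The immunoglobulin genes Igkv8-30 and Iglv1 stood among the 15 largest rises as well, but the call of Iglv1 was lost without naive array 3 (1.76, adjusted p = 0.0970) or CD24lo array 3 (1.97, adjusted p = 0.0694). Also among them was Fcmr, the receptor for immunoglobulin M, at 6.21, 7.47 and 7.63 against 4.54, 4.91 and 4.93. The summed intensity of the 13 markers was 3456.1 to 3888.7 on the naive arrays and 1660.0 to 2188.9 on the CD24lo arrays. The defining factors Pax5 (-0.04, SE 0.15) and Ebf1 (-0.13, SE 0.11) were at 3.73 to 4.66 on the naive arrays and were not called on their brightest probe sets. Of the 4 dimmer probe sets of Ebf1 all were positive and 1 was called higher (0.52, adjusted p = 0.0115). Lymph node Tregs had Ms4a1 at 7.22, so the same transcripts were present in the other lymph node sort. Their part in the rises of Cxcr5, Fcmr and other genes that B cells also express was not tested.

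None of 10 thymic epithelium markers, 4 erythroid markers or 8 liver markers was called, although 1 epithelial marker, Prss16, was called higher in the fit of the compared groups alone and under either scaling. Among 20 antigen-presenting and myeloid markers 3 were lower and none higher (1 without naive array 1), so that 15.0% were called against 14.6% of all genes. Their summed intensities were 4130.3 to 5647.4 on the naive arrays and 4193.8 to 5980.9 on the CD24lo arrays. S100a8, a neutrophil gene, was spread over the naive arrays at 4.34, 6.43 and 8.69 and was not called (1.62, SE 0.90), and S100a9 was called without naive array 1 (2.88, adjusted p = 0.0330). Of 12 stromal and endothelial markers 2 were higher (16.7%, against 14.6% of all genes called), 1 of them Pecam1, which T cells also express (0.83, SE 0.15). The count was 1 without any single array other than naive array 3. Cd8a, at 4.56 to 5.00 against 4.62 to 5.08, was not called, while Cd8b1 was at 7.38, 7.63 and 7.93 against 5.56, 6.65 and 7.22 (1.17, SE 0.30), a call lost without CD24lo array 1 (adjusted p = 0.0957). Cd4, picked after its values were seen, rose by 0.57 (SE 0.16), a call lost without naive array 1 (adjusted p = 0.120). Of 7 genes listed as CD8 T cell markers 3 were higher and 2 lower, each count 1 without CD24lo array 1. The 7 included Zbtb7b, a factor of the CD4 lineage that was not called, and Itgae, which was also high in Tregs. Zbtb7b was called higher with a replicate block, under either scaling and with dim genes left out. It was also called higher with probe sets averaged and on log2 of intensity plus 16. Of 10 double-positive thymocyte markers 1 was higher, Cd8b1 (10.0%, against 14.6% of all genes called). Among 13 Treg markers 4 were lower and 1 higher (2 without naive array 3 or CD24lo array 1). Besides Ikzf2 the lower ones included Nrp1, which natural killer T cells of recent thymic origin also carry (-1.22, SE 0.23), and Capg, an actin-capping protein (-2.69, SE 0.11). Ctla4 differed by -0.30 (SE 0.32).

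The same naive arrays were also set against Foxp3- CD24int thymocytes, those with intermediate CD24. Because both comparisons share the naive arrays, their values are given side by side with no overlap of calls. Against CD24int cells 1558 genes were called (8.56%), 797 higher (4.38%) and 761 lower (4.18%). Itgae differed by -2.55 against CD24int and -6.81 against CD24lo, Klra5 by -1.64 and -6.37, Zbtb16 by -0.20 and -4.20, and Il4 by 0.14 and -4.41. Several innate-like genes that were lower in naive than in CD24lo cells were higher in naive than in CD24int cells: Tbx21 by 2.09 (SE 0.26, adjusted p = 3.2e-06), Nrp1 by 1.78 (adjusted p = 5.8e-06) and Cxcr6 by 2.02 (adjusted p = 0.0094). Ccl5, which differed by 0.05 against CD24lo, was higher than in CD24int cells by 2.08 (adjusted p = 3.0e-05). Against CD24int and CD24lo in turn, Dapl1 (3.92 and 3.00), Pde5a (2.45 and 2.73) and Pdlim4 (2.44 and 2.56) were higher in naive cells against either thymic group, against 0.33 and 1.51 for S1pr1, -0.08 and 1.16 for Ccr7, and 0.08 and 1.00 for Bcl2, which missed the threshold against CD24int. By list, egress genes had 4 members higher against CD24int and 15 against CD24lo, naive T cell genes 6 and 17, cell cycle genes 29 lower and 22, and interferon genes 23 lower and 19.

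Whether the difference between lymph node and thymus was the same in conventional cells and in Tregs was tested as an interaction. This was the naive minus CD24lo difference minus that between lymph node Tregs and Foxp3+ CD24lo thymocytes, which use separate arrays. The Foxp3- CD24lo arrays, called conventional here, carried high Zbtb16, Trgv4 and Klra5 transcripts. Tissue and cell type therefore cannot be told apart in the conventional pair. The interaction was called for 1996 genes (11%), 714 higher (3.92%) and 1282 lower (7.05%) in the conventional pair, and its median SE was 0.21. In Tregs alone 1078 genes were called between tissues (5.93%), 573 higher (3.15%) and 505 lower (2.78%). Across all genes the 2 tissue differences correlated at -0.05, a description over genes that are not independent replicates. Calls of the same direction in both numbered 254, which is 9.56% of the calls in conventional cells and 23.6% of those in Tregs, and 223 were opposite.

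Itgae shows the contrast most clearly. It stayed high in Tregs in either tissue, at a mean of 11.15 in lymph node and 11.41 in thymus (difference -0.25, adjusted p = 0.89), and the interaction was -6.55 (adjusted p = 2.5e-08). Klra5 (interaction -6.33) and Jag1 (-5.53) were low in Tregs in either tissue, at means of 3.22 and 3.26 and of 4.02 and 3.70. Other genes moved oppositely in the 2 classes. Ccr10 fell by 3.97 from CD24lo to naive cells and rose by 2.51 from thymic to lymph node Tregs (interaction -6.49, adjusted p = 7.5e-13), and Gzmb fell by 4.18 and rose by 2.08 (interaction -6.26). S100a6 fell by 3.03 and rose by 3.18 (interaction -6.21), and Lgals3 fell by 3.75 and rose by 2.04 (interaction -5.78). Ccr7 rose by 1.16 in the conventional pair and fell by 1.48 in Tregs (interaction 2.64, adjusted p = 5.6e-09). Pde5a and Slc16a5 rose in conventional cells and were not called in Tregs (differences 0.20 and 0.02). Scin, an actin-severing protein, and Cavin1, a caveola coat protein, were instead high in thymic CD24lo Tregs alone among these groups, at means of 7.26 and 7.31. The B cell gene Ms4a1 rose by 2.88 in the conventional pair and 2.93 in Tregs, and its interaction was -0.05 (SE 0.41, adjusted p = 0.97).

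**Figure D5:**
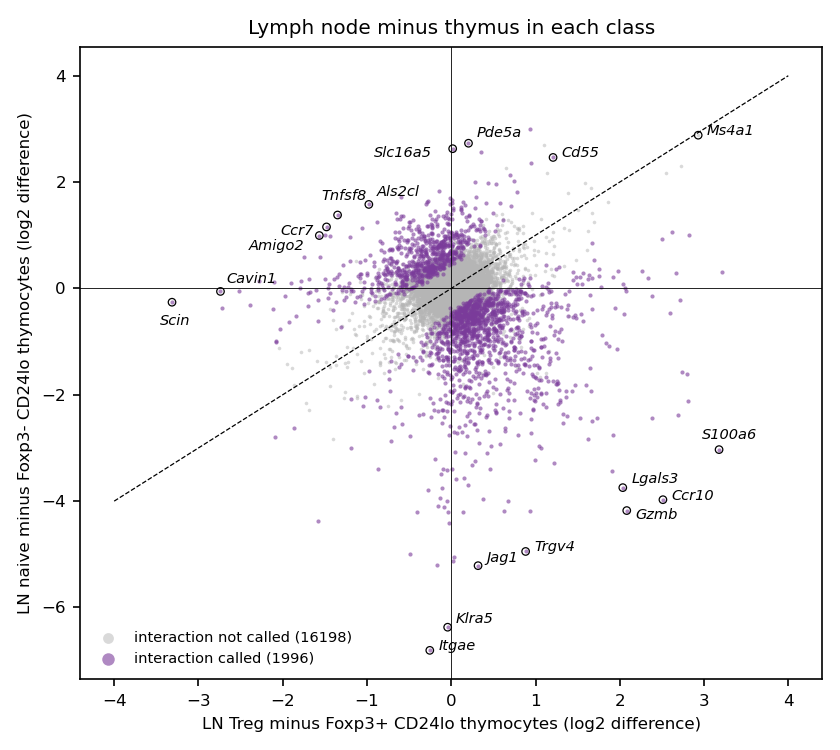
Log2 difference between lymph node and CD24lo thymocytes for each of 18194 genes in Tregs (x axis) and in conventional cells (y axis), with the 1996 genes of called interaction in purple and the line of equal difference dashed. Itgae, Klra5 and Jag1 lie far down near 0 on the Treg axis, Ccr10, Gzmb, S100a6 and Lgals3 lie in the lower right, and Ms4a1 lies on the dashed line.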

How the data were processed

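Each value is a probe set intensity that the authors deposited on a linear scale, made with RMA (background correction, normalization between arrays and summary of probes) per the submitters' processing notes, with its version not given in the sources used here. Of 45101 probe sets, 34958 had a single gene symbol in the platform's gene table, 932 several and 9211 none, and the last 2 kinds were left out. The probe set with the highest mean over 27 arrays stood for its gene. Intensities were transformed to log2 with no constant added, and no gene was filtered.

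Group means of all 9 groups were fitted with limma 3.58.1 in R 4.3.3 (prior degrees of freedom 5.98), so that the groups share an estimate of spread. P-values are two-sided, adjusted by Benjamini-Hochberg over 18194 genes. The method was tested on simulated data.

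Lists came from general knowledge, and the members and lists were chosen with earlier results of these data known. Named genes were Foxp3, Il2ra and Cd24a as a check of the sorts, and the cell type markers. They also took in the 15 largest rises and falls among called genes with non-overlapping arrays, and the 8 largest interactions each way. From the lists came up to 6 called and 3 uncalled members of each, and all members of other cell types' lists. Alternatives were a replicate block, the compared groups alone, quantile normalization, median centring, dim genes (mean log2 under 5) left out, the mean of a gene's probe sets, log2 of intensity plus 16, an intensity trend, and each array left out in turn, also Foxp3- CD24hi array 3.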

Additional observations from a re-analysis of the deposited data

Results flagged for a closer look

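For 1996 genes (11%) the lymph node minus thymus difference differed between conventional cells and Tregs by a test of that difference, limma's interaction. As said above, tissue and cell type cannot be told apart in the conventional pair. The 16 flagged here are the 8 largest in each direction. The interaction was most negative for Itgae (-6.55), Ccr10 (-6.49), Klra5 (-6.33), Gzmb (-6.26), S100a6 (-6.21), Trgv4 (-5.83), Lgals3 (-5.78) and Jag1 (-5.53). It was most positive for Scin (3.05), Tnfsf8 (2.73), Cavin1 (2.68), Ccr7 (2.64), Slc16a5 (2.61), Als2cl (2.56), Amigo2 (2.56) and Pde5a (2.53). Tnfsf8, which encodes the CD30 ligand, rose by 1.38 in conventional cells and fell by 1.35 in Tregs. Als2cl rose by 1.58 and fell by 0.98. Amigo2 rose by 0.99, a call lost without CD24lo array 1 (0.63, adjusted p = 0.0734), and fell by 1.57 in Tregs. Groups of 3 arrays are too small to test single arrays as outliers.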

How the results depend on the processing

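Of 167 named genes that were called, 143 kept their call and direction in all 15 alternatives, 24 lost the call in at least 1, and 0 reversed. Of the 138 named genes that were not called, 31 were called in at least 1 alternative. With the replicate number as a block the main comparison kept all 2658 of its calls and had 3885 (1627 higher, 2258 lower). Deviations from group means correlated at 0.09 to 0.36 between compared arrays of the same number. Between arrays of other numbers they correlated at -0.29 to 0.07. The rule for pairing asked for at least 0.1, which the lowest same-number value narrowly missed, so the main fit has no block. Under the replicate block the interaction had 3067 calls (1199 higher), naive against CD24int 2640 (1408 higher, 1232 lower) and Tregs between tissues 1922 (1037 higher, 885 lower). Among genes not called without it, the block called Cd24a (0.89, adjusted p = 0.00365), Cd69 (0.56, 0.0201), Cxcr3 (-1.03, 0.0113), Prkar1a (-0.39, 0.0298) and H2-K1 (0.29, 0.0165), and the receptor-induced list then had 3 members higher. After median centring 1901 genes were higher in the main comparison and 1257 in the interaction. Leaving out single arrays gave 2069 to 2269 calls in the main comparison, and 328 to 426 lower genes between Treg tissues, the lowest without Foxp3+ CD24lo array 3 and 336 without lymph node Treg array 2. The cause of these shifts was not tested. Of 83 called named genes with further probe sets, 60 had another called the same way, and Hivep3 alone had one called oppositely. No detection calls were used, so a low intensity has no stated floor, and folds of dim genes are compressed by an unknown amount.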
